A study of Mus musculus with 6 samples.

Results

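Fibrillar collagens are the chains that build the rope-like fibrils of scar and connective tissue, and their mRNAs were followed here in mouse liver. The 6 chains are taken by name, by a rule that uses no measured value: Col1a1 and Col1a2 of type I collagen, Col3a1 of type III, and Col5a1, Col5a2 and Col5a3 of type V. They are 6 of the 40481 genes with a symbol in the deposited table, and all 6 passed the filter on low counts. The rule, and the gene lists used further on, were chosen with earlier results of these data known. Counts of called genes set beside the share over all genes are therefore descriptive. RNA-Seq was done on whole liver from male mice of the C57BL/6 background that ate a methionine/choline-deficient (MCD) diet, a diet that provokes steatosis, inflammation and scarring, for 3 weeks. The labels give 12 livers and a 4 h fast. The study's methods give 3 to 4 mice for each of the 6 RNA pools, which 12 livers would not supply, and the mismatch was not resolved. The 3 Mttp-IKO pools came from Mttp f/f Villin-Cre ERT2 mice given tamoxifen for 5 days, starting the diet 3 weeks later at an age of 12 to 16 weeks. The 3 control pools are called wild type in the labels, while the methods describe littermates that received vehicle. Villin-Cre ERT2 acts in the gut epithelium, where Mttp loads lipid onto chylomicrons, so the liver keeps an intact Mttp gene and the liver values do not check the deletion. By the methods a replicate is a pool, so the spread between replicates understates the spread between mice. Both genotypes ate the MCD diet and no chow-fed pool was analysed here, so every value below is a difference between 2 MCD-fed groups.

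Each fibrillar chain carries a long run of Gly-X-Y triplets, in which glycine as every first residue of the triplet lets 3 chains wind into a triple helix. The chains are assembled in the endoplasmic reticulum with the help of dedicated hydroxylases and the chaperone HSP47, secreted, trimmed at both ends and crosslinked in the matrix. Type I collagen is mainly a trimer of 2 alpha1(I) chains and 1 alpha2(I) chain, type III is a trimer of identical alpha1(III) chains, and type V, which is built into type I fibrils and limits their width, is mainly 2 alpha1(V) chains with 1 alpha2(V) chain. The alpha3(V) chain encoded by Col5a3 joins a less common type V trimer. In injured liver, activated hepatic stellate cells and portal fibroblasts are the known main sources of these mRNAs. In RNA from whole liver, fewer cells of a type and less RNA per cell cannot be told apart.

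The shared design of the 6 chains is visible in their coding sequences, shown here because it sets what is compared between members. The first 30 codons of the longest unbroken run of glycine triplets were read from the GENCODE M21 transcripts of the GRCm38 genome, 5′ to 3′ along the coding strand, with the glycine codons in capitals:
Col1a1: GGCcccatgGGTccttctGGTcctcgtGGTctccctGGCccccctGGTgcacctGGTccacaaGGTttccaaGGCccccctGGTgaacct
Col1a2: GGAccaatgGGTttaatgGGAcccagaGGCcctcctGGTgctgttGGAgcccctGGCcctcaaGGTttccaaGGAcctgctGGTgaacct
Col3a1: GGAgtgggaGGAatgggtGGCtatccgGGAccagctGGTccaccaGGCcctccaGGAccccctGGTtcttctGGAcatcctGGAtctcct
Col5a1: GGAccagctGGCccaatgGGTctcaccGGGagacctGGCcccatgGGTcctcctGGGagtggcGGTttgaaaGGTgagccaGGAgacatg
Col5a2: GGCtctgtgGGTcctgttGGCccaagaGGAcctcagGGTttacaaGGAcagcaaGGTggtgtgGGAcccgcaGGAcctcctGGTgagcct
Col5a3: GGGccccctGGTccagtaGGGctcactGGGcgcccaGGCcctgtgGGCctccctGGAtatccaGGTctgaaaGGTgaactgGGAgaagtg

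These stretches lie in exons 6 to 8 of Col1a1 (chr11:94939451-94939939, plus strand), exons 6 to 8 of Col1a2 (chr6:4512406-4515516, plus), exons 5 to 6 of Col3a1 (chr1:45323762-45325413, plus), exons 14 to 15 of Col5a1 (chr2:27964080-27965295, plus), exons 8 to 10 of Col5a2 (chr1:45422404-45426996, minus) and exons 14 to 15 of Col5a3 (chr9:20801077-20801260, minus), introns included in the coordinates. The run was of nearly the same length in all members, from 337 triplets in Col5a3 to 344 in Col3a1. It takes up 55.2% of the codons of Col5a1 and 58.1% of those of Col5a3, but 67.9% to 74.1% of those of the other members, because Col5a1 and Col5a3 begin their run at codons 559 and 478 after a long amino-terminal part. The members fell into the same pairing by exon structure. Col5a1 has 47 and Col5a3 has 48 exons that lie wholly within the run, against 41 in Col1a1 and 42 in each of Col1a2, Col3a1 and Col5a2. All of these exons begin with a glycine codon and have a length that is a multiple of 9 bases, and the commonest length is 54 bases, with 21 such exons in Col1a1 and 31 in Col5a3. The codon used for glycine varied between the members. GGT made up 55.9% of the glycine codons of the run in Col1a1, 51.6% in Col1a2, 41.3% in Col3a1, 35.1% in Col5a2, 28.1% in Col5a1 and 25.2% in Col5a3.

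The genes are spread over chromosomes 11, 6, 1, 2 and 9 of GRCm38, at chr11:94936224-94953042 (Col1a1), chr6:4504814-4541543 (Col1a2), chr1:45311538-45349706 (Col3a1), chr2:27886425-28039514 (Col5a1), chr1:45374321-45503282 (Col5a2) and chr9:20770050-20815067 (Col5a3). Col3a1 and Col5a2 are the one pair that lie side by side, tail to tail, with 24614 bases between them. Annotated genes on the opposite strand overlap Col5a1 (2810430I11Rik and Gm13372, each with at most 12 reads in any pool) and Col5a3 (Gm26274, with 0 reads in all pools). Whether the counting used strand is not stated; Col5a1 itself held 376 to 3054 reads and Col5a3 held 210 to 583.

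The liver pools showed a deep deficit of most fibrillar collagen mRNAs in Mttp-IKO mice. Reads on the 6 genes together made up 0.120%, 0.0387% and 0.0797% of all gene reads in control pools 1, 2 and 3, and 0.00885%, 0.00671% and 0.00795% in Mttp-IKO pools 1, 2 and 3. The mean share was 10.1-fold lower in Mttp-IKO pools, and every Mttp-IKO pool lay below every control pool. By edgeR's quasi-likelihood test with Benjamini-Hochberg adjustment over all 17287 genes tested, 5 of the 6 members were lower in Mttp-IKO liver at an adjusted p under 0.05 and 0 were higher, against a background of 4.01% of all genes tested called, 3.09% lower and 0.92% higher. All 6 had a log2 fold change below 0, as 49.5% of all genes did. For these 5 members, too, every Mttp-IKO pool lay below every control pool, a pattern found in 16.5% of all genes (31.0% with either direction). Of the whole table, 391 of the 17287 genes had a log2 fold change at or below that of Col5a1, the smallest fall among the 5.

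Levels are given first as CPM, the reads of a gene per 1000000 gene reads of the pool after TMM scaling. Col1a1, the alpha1 chain of type I collagen, stood at 345, 102 and 240.2 CPM in control pools 1, 2 and 3 and at 20.5, 12.3 and 19.2 CPM in Mttp-IKO pools 1, 2 and 3. The lowest control pool was 4.98-fold above the highest Mttp-IKO pool. The mean fell from 229 ± 122 to 17.3 ± 4.36 CPM (SD, n = 3 pools each), a log2 fold change of -3.72 ± 0.45 (SE) with an edgeR adjusted p of 0.0159.

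Col1a2, the alpha2 chain that pairs with it, had a smaller log2 fold change. It stood at 202, 78.8 and 150.4 CPM in the control pools and at 21.2, 19.7 and 17.6 CPM in the Mttp-IKO pools, with means of 144 ± 61.9 and 19.5 ± 1.82 CPM (SD, n = 3). The Mttp-IKO pools were tightly grouped and all lay below the lowest control pool. The log2 fold change was -2.88 ± 0.33 (SE; edgeR adjusted p = 0.0141).

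Col3a1, the single chain of type III collagen, had the highest CPM of the members in every control pool and the largest estimate of the fall. Its levels were 412, 132 and 283 CPM in the control pools and 20.1, 15.1 and 19.1 CPM in the Mttp-IKO pools, where it no longer stood apart from the type I chains. Means were 276 ± 140.0 and 18.1 ± 2.62 CPM (SD, n = 3), with a log2 fold change of -3.93 ± 0.41 (SE; edgeR adjusted p = 0.0111).

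The main type V chains fell with smaller log2 fold changes than the type I and III chains. Col5a1, the alpha1(V) chain, stood at 75.7, 35.6 and 51.0 CPM in the control pools and at 14.5, 14.3 and 15.8 CPM in the Mttp-IKO pools, giving means of 54.1 ± 20.2 and 14.9 ± 0.785 CPM (SD, n = 3) and a log2 fold change of -1.86 ± 0.27 (SE; edgeR adjusted p = 0.0181). Its Mttp-IKO pools were nearly level with each other and all below the control pools. Col5a2, the alpha2(V) chain, stood at 35.9, 14.2 and 19.96 CPM against 6.09, 3.98 and 3.78 CPM, with means of 23.4 ± 11.3 and 4.62 ± 1.28 CPM (SD, n = 3) and a log2 fold change of -2.34 ± 0.37 (SE; edgeR adjusted p = 0.0220). The lowest control pool was 2.33-fold above the highest Mttp-IKO pool for Col5a2 and 2.26-fold above it for Col5a1. Col5a2, next to Col3a1 on chromosome 1, had the smaller log2 fold change of these neighbours.

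Col5a3, the rarer alpha3(V) chain, was the exception. Its control pools stood at 7.29, 16.2 and 10.2 CPM and its Mttp-IKO pools at 8.25, 9.33 and 8.81 CPM, so that all 3 Mttp-IKO pools lay inside the range of the control pools. Means were 11.2 ± 4.53 and 8.80 ± 0.538 CPM (SD, n = 3), and the log2 fold change of -0.35 ± 0.28 (SE) did not pass the test (edgeR adjusted p = 0.496). The pools held 210 to 583 reads on Col5a3, and the Mttp-IKO pools 90 to 189 reads on Col5a2. The plot of levels by pool shows the 5 chains with separate genotypes beside Col5a3.

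**Figure D1:**
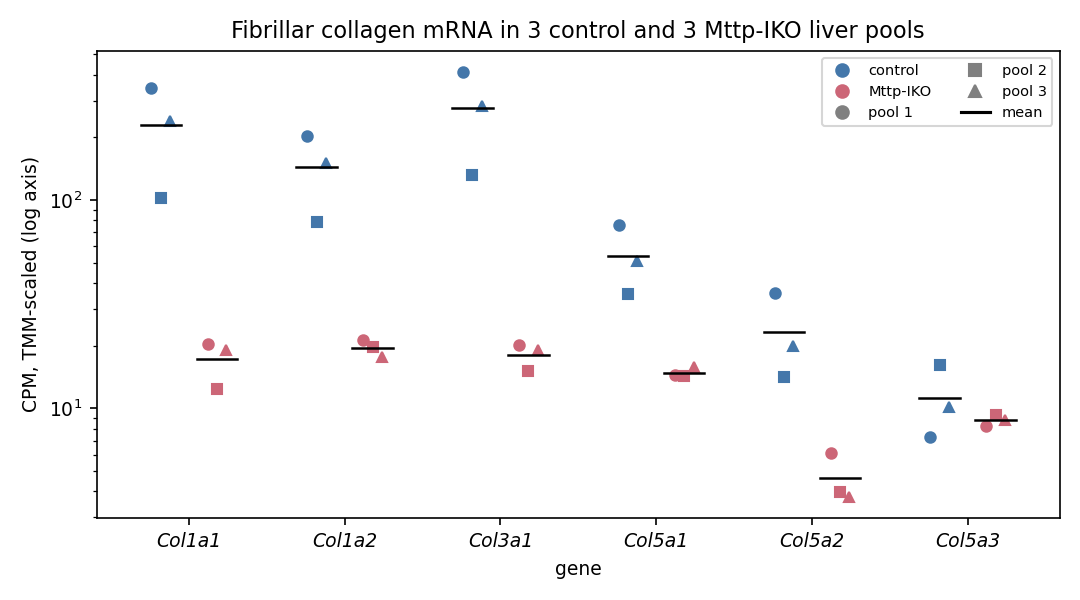
Level of each fibrillar collagen mRNA (vertical axis, TMM-scaled CPM, log axis) in each control (blue) and Mttp-IKO (red) pool, with the pool number given by the marker shape and the mean by a line. For Col1a1, Col1a2, Col3a1, Col5a1 and Col5a2 all Mttp-IKO pools lie below all control pools, while for Col5a3 they lie between 8.25 and 9.33 CPM, inside the control range of 7.29 to 16.2 CPM.

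The coefficient of variation was 37.4% to 53.2% over the control pools for the 6 members, and 5.28% to 27.8% over the Mttp-IKO pools. In 5 members control pool 1 was the highest and control pool 2 the lowest, and in Col5a3 this order was inverted, with control pool 2 at the top. Control pool 2 also stood apart in other RNA. The summed level of 13 striated muscle genes (Ttn, Neb, Acta1 and others) was 2596 CPM there, against 357 and 52.0 CPM in the other control pools and 28.9 to 70.8 CPM in the Mttp-IKO pools; 0 of its 5 tested genes were called by edgeR, with 5 at an unadjusted p under 0.05. Without control pool 2 the log2 fold changes became -4.10 for Col1a1, -3.20 for Col1a2, -4.28 for Col3a1, -2.11 for Col5a1 and -2.61 for Col5a2, all 5 still called by edgeR, and -0.01 for Col5a3.

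The calls depended on single pools more than the fold changes did. Without control pool 1, Col1a1, Col1a2 and Col3a1 kept an adjusted p under 0.05; without control pool 3 or Mttp-IKO pool 1 only Col3a1 did; and without Mttp-IKO pool 2 none of the members and 0 genes of the table were called by edgeR (3221 at an unadjusted p under 0.05), while the 5 members had unadjusted p-values of 0.000185 to 0.00196. In every one of these fits the log2 fold changes of the 5 members stayed at -1.56 or lower. The plot of fold changes gives these ranges.

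**Figure D2:**
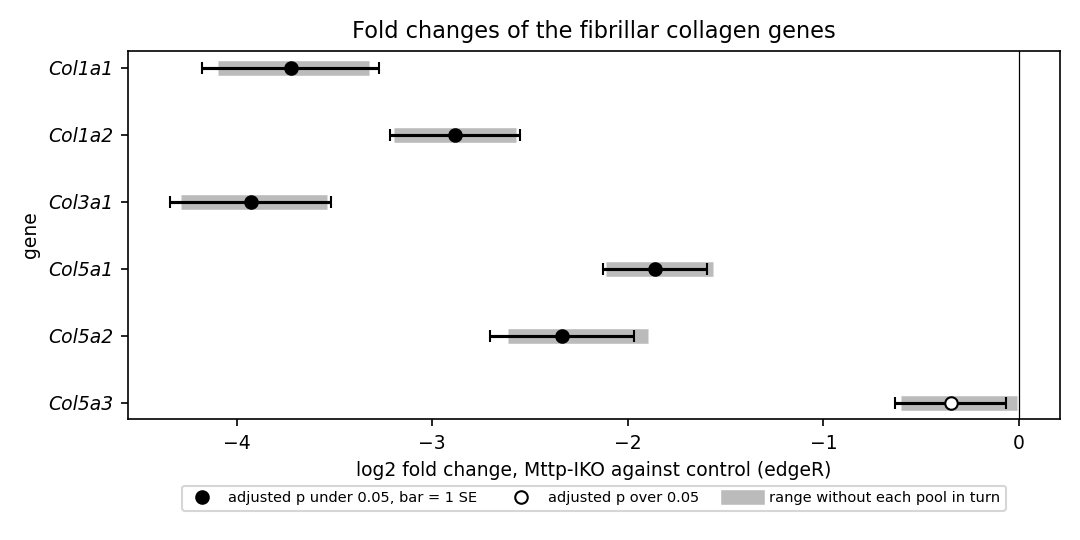
Log2 fold change of Mttp-IKO against control (horizontal axis) for each member, from edgeR, with 1 SE as a black bar and the range of the estimate when each pool is left out in turn as a grey band. Filled points mark an adjusted p under 0.05; the values run from -3.93 for Col3a1 to -0.35 for Col5a3, whose band reaches -0.01.

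To compare chains with each other, CPM was divided by length in kilobases. The length in the deposited files is the union of all annotated exons of a gene, which for Col1a2 is 12136 bases against a coding sequence of 4116 bases, since 6 of its 8 annotated transcripts retain introns. The coding length was therefore used beside it. By coding length, the mean levels in control pools were 62.7 ± 31.9 CPM per kb for Col3a1, 52.5 ± 28.0 for Col1a1, 34.9 ± 15.1 for Col1a2, 9.82 ± 3.67 for Col5a1, 5.20 ± 2.51 for Col5a2 and 2.15 ± 0.868 for Col5a3 (SD, n = 3), and each chain was above the next in 3 of 3 pools. In the Mttp-IKO pools the order was Col1a2 at 4.73 ± 0.443 CPM per kb, Col3a1 at 4.12 ± 0.596, Col1a1 at 3.98 ± 1.001, Col5a1 at 2.70 ± 0.142, Col5a3 at 1.69 ± 0.103 and Col5a2 at 1.03 ± 0.286 (SD, n = 3). Col1a2 was above Col3a1 in 2 of these 3 pools and Col3a1 above Col1a1 in 1 of 3, so the order of these neighbours was not settled, whereas Col5a1, Col5a3 and Col5a2 kept their order in 3 of 3 pools. By the deposited length, Col1a1 was first in both genotypes, with 34.9 ± 18.6 and 2.64 ± 0.665 CPM per kb, ahead of Col3a1 with 28.1 ± 14.3 and 1.84 ± 0.267.

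The make-up of the fibrillar collagen mRNA differed between the genotypes in the share of type V. Type V chains made up 9.44%, 14.9% and 9.12% of the summed level per coding length in control pools 1, 2 and 3, and 27.9%, 32.3% and 29.3% in Mttp-IKO pools 1, 2 and 3. Col5a3 alone was 6.04%, 24.4% and 12.5% of the 3 type V chains in the control pools and 28.4%, 33.9% and 31.3% in the Mttp-IKO pools. Both shares were above the control range in every Mttp-IKO pool.

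**Figure D3:**
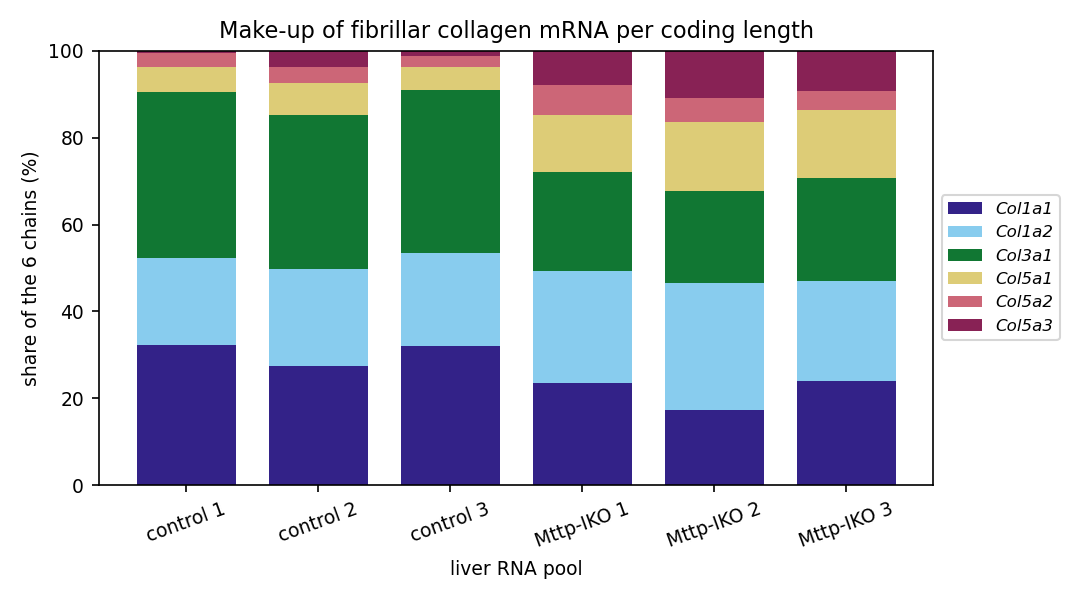
Share of each chain in the summed level of the 6 fibrillar collagen mRNAs, in CPM per kb of coding length (vertical axis, percent), in each pool. Col3a1 is the largest share in the control pools, at 35.2% to 38.2%, and the type V chains at the top of each bar widen from 9.12% to 14.9% in control pools to 27.9% to 32.3% in Mttp-IKO pools.

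Ratios between chains within a pool do not depend on how the pools were scaled against each other. Differences in 5 such ratios, and in the ratio of the summed members to stellate cell genes given further on, were tested by exact permutation of the 3 against 3 pools, 2-sided, in which no p can be under 0.1, so the design cannot reach 0.05 for any of them. Col1a2 to Col1a1, per coding length, was 0.621, 0.818 and 0.663 in the control pools and 1.10, 1.69 and 0.971 in the Mttp-IKO pools. The means were 0.701 ± 0.104 and 1.25 ± 0.381 (SD, n = 3), both above the 1 to 2 proportion of the type I trimer, and the genotypes did not overlap. The difference was 0.81 ± 0.27 on the log2 scale (SE), with the smallest exact p the test can give, 0.1 (0.15 adjusted over the 6 ratios). By the deposited length the same ratio was 0.358 ± 0.0530 and 0.639 ± 0.195 (SD, n = 3), so the absolute proportion rests on the length used while the difference between genotypes does not.

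Col3a1 to Col1a1 overlapped between the genotypes. Per coding length it was 1.18, 1.28 and 1.17 in the control pools and 0.972, 1.22 and 0.990 in the Mttp-IKO pools, with overlapping ranges and a log2 difference of -0.20 ± 0.11 (SE; exact permutation p = 0.3). On the mean CPM, the control level was 15.2-fold the Mttp-IKO level for Col3a1 and 13.2-fold for Col1a1.

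Of the 5 ratios between chains, Col5a1 to Col1a1 had the largest log2 difference between genotypes. It was 0.174, 0.276 and 0.168 per coding length in the control pools and 0.560, 0.918 and 0.650 in the Mttp-IKO pools, without overlap. The log2 difference was 1.79 ± 0.31 (SE; exact permutation p = 0.1, the smallest possible, and 0.15 adjusted), a 3.46-fold higher proportion of alpha1(V) to alpha1(I) mRNA.

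Within type V, the usual partners were compared first. By the deposited length, Col5a2 to Col5a1 averaged 0.373 ± 0.0408 in the control pools (SD, n = 3), so its absolute proportion rests on the length used. Per coding length it was 0.583, 0.490 and 0.480 in the control pools, near the 1 to 2 proportion of the main type V trimer. In the Mttp-IKO pools it was 0.516, 0.341 and 0.294 per coding length. The ranges overlapped and the log2 difference was -0.47 ± 0.26 (SE; exact permutation p = 0.3). Col5a3 to Col5a1 was 0.102, 0.480 and 0.211 in the control pools and 0.601, 0.688 and 0.590 in the Mttp-IKO pools, which did not overlap. Its log2 difference was 1.52 ± 0.65 (SE; exact permutation p = 0.1, 0.15 adjusted), and control pool 2, the pool rich in muscle genes, was the control pool nearest to the Mttp-IKO pools; without it the difference was 2.09, and without control pool 1 it was 0.97.

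**Figure D4:**
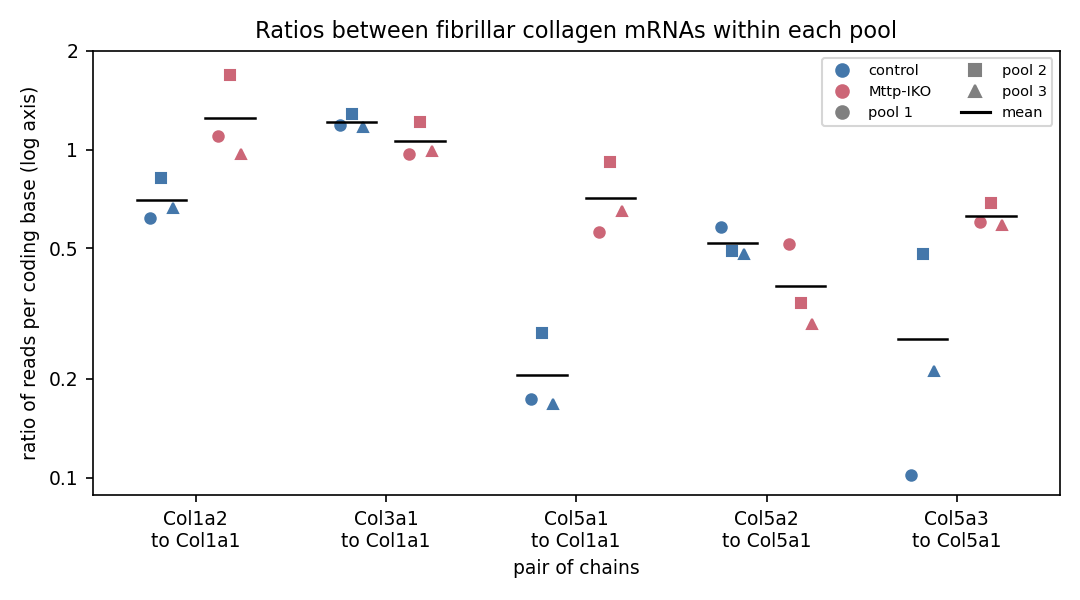
Ratio of reads per coding base between 5 pairs of fibrillar collagen mRNAs (vertical axis, log axis) in each control (blue) and Mttp-IKO (red) pool, with means as lines. The ratios of Col1a2 and Col5a1 to Col1a1 and of Col5a3 to Col5a1 are above the control range in all Mttp-IKO pools, and those of Col3a1 to Col1a1 and Col5a2 to Col5a1 overlap.

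The sequence just upstream of the genes is shown for the members with the largest and the smallest fold change. The RefSeq promoter table for GRCm38.p6 gave the 250 bases before the RefSeq start of 4 of the 6 members (Col1a2, Col3a1, Col5a1 and Col5a3). For Col1a2 that window, chr6:4505368-4505617, lies inside the gene as the files bound it, since the outermost annotated transcript starts further upstream. Both strands were searched. The TATA box was looked for as the letters TATAAA. The CCAAT box was looked for by the letters of its name. The GC box was looked for as the letters GGGCGG. The AP-1 site was looked for as the letters TGANTCA. Matches are in capitals:
Col3a1, chr1:45311288-45311537, plus strand: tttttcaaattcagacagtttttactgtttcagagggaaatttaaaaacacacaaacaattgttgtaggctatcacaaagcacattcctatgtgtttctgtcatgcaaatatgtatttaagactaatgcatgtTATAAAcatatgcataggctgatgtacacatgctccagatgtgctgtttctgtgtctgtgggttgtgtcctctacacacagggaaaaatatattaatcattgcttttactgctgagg
Col5a3, chr9:20815068-20815317, minus strand: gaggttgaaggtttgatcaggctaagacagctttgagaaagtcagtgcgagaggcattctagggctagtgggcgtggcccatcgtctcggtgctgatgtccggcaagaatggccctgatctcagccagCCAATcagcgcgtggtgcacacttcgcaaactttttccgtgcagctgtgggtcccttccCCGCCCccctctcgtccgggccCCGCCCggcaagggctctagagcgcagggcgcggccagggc

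The Col3a1 stretch held 35.2% G and C bases with 1 TATAAA and none of the other motifs, and the Col5a3 stretch held 62.8% with 1 CCAAT and 2 GC boxes. Col1a2 had 1 CCAAT and 2 GC boxes, the same count of each as Col5a3. Col5a1 had 76.4% G and C bases with 2 GC boxes. Among all 32851 promoters of the table, 12.4% held TATAAA, 33.8% CCAAT, 32.7% the GC box and 6.75% the AP-1 letters, which none of the 4 members held. These are matches of letters only.

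The other fibrillar collagen chains, which are prominent in cartilage and developing bone, were then examined. Of 5 such genes, Col2a1 and Col11a1 had too few reads to be tested, and of the 3 tested 0 passed in either direction (edgeR; 0 at an unadjusted p under 0.05, and 0 by DESeq2 or limma-voom). Col27a1 stood at 14.2, 14.7 and 15.1 CPM in the control pools and 7.29, 7.06 and 22.9 CPM in the Mttp-IKO pools (log2 fold change -0.24 ± 0.43, SE), so its Mttp-IKO pools lay on both sides of the control pools. That estimate turned to 0.027 without Mttp-IKO pool 1 and to 0.039 without Mttp-IKO pool 2, while without Mttp-IKO pool 3 it was -1.03 and passed (edgeR adjusted p = 0.0204). Col11a2 had a log2 fold change of 0.28 ± 0.32 (SE), which turned to -0.027 without control pool 2. Col24a1 was lower in all Mttp-IKO pools, at 0.839 to 0.967 CPM against 1.09 to 2.02 CPM, a pattern found in 16.5% of all genes. Its log2 fold change was -0.61 ± 0.36 (SE, edgeR adjusted p = 0.348).

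Some of the cell's machinery for making procollagen was lower as well. Of 20 tested genes for folding and modification of the chains in the endoplasmic reticulum, 3 were called lower and 0 higher, with a median log2 fold change of -0.35 against 0.01 over all genes tested, of which 3.09% were called lower. Serpinh1, which encodes the collagen chaperone HSP47, stood at 79.2, 32.0 and 42.9 CPM in the control pools and 16.2, 8.30 and 11.2 CPM in the Mttp-IKO pools. Its log2 fold change was -2.11 ± 0.38 (SE, edgeR adjusted p = 0.0298). P3h3, a prolyl 3-hydroxylase family member, fell from 8.46 ± 1.88 to 2.48 ± 0.401 CPM (SD, n = 3; log2 fold change -1.77, edgeR adjusted p = 0.0181), and Creb3l1, a transcription factor that promotes collagen secretion, from 10.8 ± 3.71 to 3.98 ± 0.272 CPM (log2 fold change -1.43, edgeR adjusted p = 0.0360). The most abundant members of the list did not pass. P4hb, protein disulfide isomerase and a subunit of prolyl 4-hydroxylase, had a log2 fold change of 0.14 that turned to -0.035 with total count scaling and to -0.033 without Mttp-IKO pool 1, and Mia3, needed to export large cargo such as collagen, had 0.23.

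Outside the cell, fibrils are trimmed, spaced and crosslinked. Of 17 tested genes, 9 were called lower and 0 higher (3.09% and 0.92% of all genes), with a median log2 fold change of -1.04. Of 5 lysyl oxidase genes, whose products crosslink collagen, 3 were called. Loxl1 stood at 22.8, 12.4 and 14.9 CPM in the control pools and 3.42, 4.18 and 2.43 CPM in the Mttp-IKO pools (log2 fold change -2.32 ± 0.30, SE; edgeR adjusted p = 0.0175). Lox had a log2 fold change of -1.99 (adjusted p = 0.0456) and Loxl2 one of -1.87 (adjusted p = 0.0422), while Loxl3 (-1.002, adjusted p = 0.0897) and Loxl4 (-0.31, adjusted p = 0.454) were not called. The small proteoglycan Lum, which binds and spaces fibrils, fell from 28.9 ± 8.86 to 8.26 ± 0.854 CPM (SD, n = 3; log2 fold change -1.81, edgeR adjusted p = 0.0181), and Sparc, a collagen-binding matrix protein, from 143 ± 51.3 to 43.3 ± 6.29 CPM (log2 fold change -1.72, edgeR adjusted p = 0.0231). Adamts2 and Pcolce, which remove the amino-terminal propeptide and help remove the carboxy-terminal one, were called lower as well, with log2 fold changes of -1.61 and -1.55, as were Fmod and Bgn with -1.58 and -1.04. The other tested propeptide genes of the list were not called. Bmp1 was higher in every Mttp-IKO pool but not called (log2 fold change 0.64, edgeR adjusted p = 0.0720). Pools were separate in either direction in 31.0% of all genes. Adamts3, Adamts14 and Pcolce2 had log2 fold changes of 0.05, 0.40 and -0.29. Tll1 and Tll2 had too few reads to be tested. With limma-voom the list had 6 calls, the adjusted p rising to 0.0856 for Lox, 0.0732 for Loxl2 and 0.0749 for Fmod. Decorin (Dcn), a relative of lumican, was not called (log2 fold change -0.44 ± 0.20, SE), nor was Fn1, encoding fibronectin, which hepatocytes also secrete (0.60 ± 0.22, SE; edgeR adjusted p = 0.159, DESeq2 adjusted p = 0.0237).

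Genes for sensing and breaking down collagen also moved in 1 direction among those called. Of 18 tested, 6 were called lower and 0 higher (3.09% and 0.92% of all genes), with a median log2 fold change of -0.86. Mmp13, the interstitial collagenase of rodents, had the largest fall, from 6.72, 3.13 and 5.90 CPM in the control pools to 0.161, 0.274 and 0.419 CPM in the Mttp-IKO pools. Its log2 fold change was -4.22 ± 0.46 (SE, edgeR adjusted p = 0.0126). These Mttp-IKO levels rest on few reads, as 3 reads correspond to 0.0944, 0.0923 and 0.119 CPM in those pools. Mrc2, a receptor that takes up collagen fragments, had -2.34 (adjusted p = 0.0141), Mmp2, a gelatinase, -1.79 (adjusted p = 0.0159), Lair1, an inhibitory collagen receptor of immune cells, -1.64 (adjusted p = 0.0425), Timp2, an inhibitor of matrix metalloproteinases, -0.98 (adjusted p = 0.0181) and Ddr2, a receptor tyrosine kinase for fibrillar collagen, -0.91 (adjusted p = 0.0364). Itgb1, the beta chain of the collagen-binding integrins, had a log2 fold change of -0.05, which turned to 0.050 with the length trend removed and to 0.055 without Mttp-IKO pool 2, and Mmp14 had 0.31; neither was called. Without control pool 1, control pool 3 or Mttp-IKO pool 2, 0 genes of these 3 lists of folding, fibril assembly and receptors were called, and without Mttp-IKO pool 1 only 1 was, a receptor or degradation gene; without control pool 2 the folding list had 5 calls and without Mttp-IKO pool 3 it had 1.

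Genes of TGF-beta signalling and known regulators of collagen genes were examined as a last list of the pathway. Of 18 tested, 0 were called in either direction by edgeR, near the background of 4.01%, 3 had an unadjusted p under 0.05, and DESeq2 called 1. That gene was Tgfb1, the cytokine that induces collagen genes in stellate cells, at 63.0, 30.6 and 53.5 CPM in the control pools and 28.0, 23.3 and 29.1 CPM in the Mttp-IKO pools (log2 fold change -0.87 ± 0.26, SE; edgeR adjusted p = 0.103, DESeq2 adjusted p = 0.0377). Without control pool 2 it had a log2 fold change of -1.14 and passed with edgeR (adjusted p = 0.0210). Its Mttp-IKO pools lay below the control pools, as in 16.5% of all genes. The list's median log2 fold change was -0.10, and Sp1 and Smad4, the uncalled members with the highest mean over all 6 pools, had 0.25 and 0.28, where Sp1 turned to -0.071 without Mttp-IKO pool 3.

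**Figure D5:**
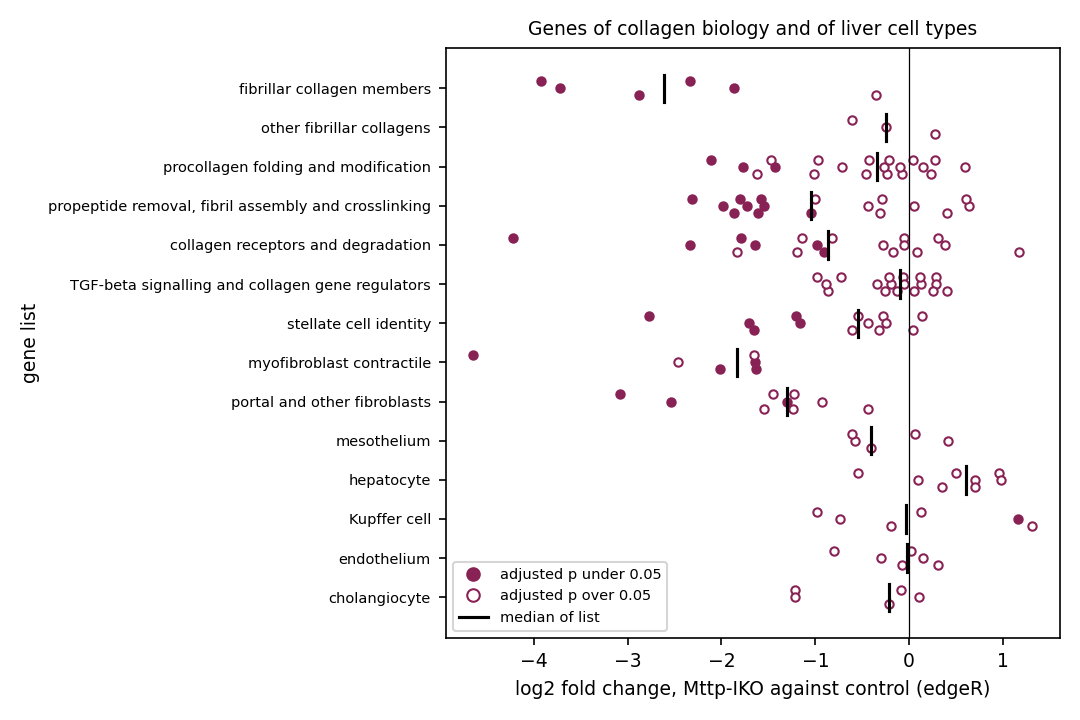
Log2 fold change of Mttp-IKO against control (horizontal axis, edgeR) for each tested gene of the lists of collagen biology and of liver cell types, with the list's median as a line and filled points for an adjusted p under 0.05. The medians lie at -1.04 for propeptide removal, fibril assembly and crosslinking, at -0.86 for collagen receptors and degradation and at -0.10 for TGF-beta signalling and collagen gene regulators.

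Some marker genes of the cells that make collagen were lower as well. The summed level of 13 stellate cell identity genes was 765 to 939 CPM in the control pools and 570 to 736 CPM in the Mttp-IKO pools, and 5 of the 13 were called lower and 0 higher (3.09% and 0.92% of all genes). Lrat, the enzyme that stores retinol in stellate cells, fell from 66.8 ± 18.6 to 20.4 ± 3.00 CPM (SD, n = 3, log2 fold change -1.71, edgeR adjusted p = 0.0181). Reln, another stellate cell gene with a higher level, had a log2 fold change of -0.44 (adjusted p = 0.235). Vipr1, also with a higher mean over all pools than Lrat, had 0.13 (adjusted p = 0.658). Relative to this list, with the reads of every gene divided by its deposited length, the summed members stood at 0.564, 0.239 and 0.399 in the control pools. In the Mttp-IKO pools they stood at 0.0774, 0.0527 and 0.0595. Reln and Ecm1, neither of them called, carried most of the stellate sum in CPM, at 282 and 199 CPM in the control pools (log2 fold changes -0.44 and 0.04). The called genes Ngfr, Lrat and Colec11 had -2.78, -1.71 and -1.65. Because the ratio divides by length, the weights of these genes in it differ from those in CPM and were not examined. The log2 difference of that ratio was -2.60 ± 0.40 (SE; exact permutation p = 0.1, 0.15 adjusted), and all 3 Mttp-IKO pools lay below the control pools.

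Of 6 contractile genes of myofibroblasts, 4 were called lower and 0 higher (3.09% and 0.92% of all genes). Tagln, an actin-binding protein of contractile cells, fell from 21.5 ± 6.28 to 6.87 ± 0.842 CPM (SD, n = 3; log2 fold change -1.64, edgeR adjusted p = 0.0184). The list also holds Des and Tpm2, which striated muscle expresses. Tpm2 is among the 4 calls (edgeR adjusted p = 0.0493), at 12.1, 82.6 and 6.06 CPM in control pools 1, 2 and 3. The list's sum of 184 CPM in control pool 2 stood above the 56.8 and 90.8 CPM of the other control pools. It also stood above the 16.4 to 23.0 CPM of the Mttp-IKO pools. Among 9 tested genes of portal and other fibroblasts 3 were called lower and 0 higher (3.09% and 0.92% of all genes). Dpt, a matrix protein of fibroblasts with the largest fall of this list, stood at 7.77 ± 1.35 against 0.911 ± 0.0640 CPM (SD, n = 3, log2 fold change -3.08, edgeR adjusted p = 0.00656). The median log2 fold change of the list was -1.30. Entpd2 (-0.44, edgeR adjusted p = 0.526) and Clec3b (-0.93, edgeR adjusted p = 0.396) overlapped between genotypes and were not called. The summed levels of the list were 45.4 to 65.3 CPM in the control pools and 13.8 to 25.5 CPM in the Mttp-IKO pools. The part of these cell types in the collagen difference was not tested. For the remaining cell types the summed levels overlapped between genotypes in mesothelium (13.4 to 24.6 and 7.13 to 19.4 CPM), endothelium (337 to 380.0 and 332 to 392 CPM), Kupffer cells (320 to 490 and 244 to 583 CPM) and cholangiocytes (68.7 to 193 and 48.6 to 94.0 CPM). By edgeR, 0 genes of the mesothelium, endothelium, cholangiocyte and hepatocyte lists were called, with 0, 0, 2 and 3 at an unadjusted p under 0.05. Hepatocyte genes summed to 53037 to 86433 CPM in the control pools and, without overlap, to 104704 to 158897 CPM in the Mttp-IKO pools. The median log2 fold change of the 8 genes was 0.60. In 4 of them every Mttp-IKO pool lay above the control pools, and in 1 below. The tissue was liver by its markers in all pools. No marker of any list was at 0 reads in all pools. Of 6 Kupffer cell genes 1, Timd4, was called higher and 0 lower (0.92% and 3.09% of all genes), with 4 at an unadjusted p under 0.05. Adgre1, which encodes the macrophage marker F4/80, was lower in every Mttp-IKO pool than in any control pool, as were 16.5% of all genes. It was not called (log2 fold change -0.98, edgeR adjusted p = 0.0895). The other uncalled genes went both ways. Cd5l had -0.74 (adjusted p = 0.214) and Clec4f -0.19, while Marco had 1.31 (adjusted p = 0.195) and Vsig4 0.12. Of the 6 genes, 3 had a log2 fold change below 0.

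The genes with the most similar profile to the members' mean were found by the root mean square distance between centred log2 CPM profiles over the 6 pools, among 12406 genes with a mean log2 CPM of at least 1. They were Emp1 (distance 0.135), Adamts12 (0.148), Capg (0.154), Col6a3 (0.165), Mrc2 (0.168), Svep1 (0.197), Ngfr (0.1998), Ptafr (0.211), Spon2 (0.215) and Gsta2 (0.230). Col6a3, a chain of the microfibrillar type VI collagen, stood at 172, 80.8 and 128 CPM in the control pools and 18.3, 19.96 and 20.2 CPM in the Mttp-IKO pools. The distances of the members from their own mean were 0.219 for Col5a2, 0.233 for Col1a2, 0.325 for Col5a1, 0.651 for Col1a1, 0.717 for Col3a1 and 1.25 for Col5a3. With Col5a3 left out of the mean, Col6a3, Ngfr, Capg, Emp1, Adamts12 and Svep1 were again among the 10 nearest, with Fam83a, Cpxm1, Dpt and Cx3cr1 as the others.

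Depth was similar in all pools, at 25271585 to 36238734 gene reads, and 3 reads corresponded to 0.0828 to 0.119 CPM, far under the level of any member. Mttp, the gene deleted in the gut, stood in liver at 90.4, 186 and 175 CPM in the control pools and at 145, 129 and 161 CPM in the Mttp-IKO pools. Mttp-IKO pool 3 differed from the others in small RNAs, which took 0.634% of its reads against 3.595% to 5.27%; without it the 5 members kept an adjusted p under 0.05 and log2 fold changes of -3.80 for Col1a1, -2.81 for Col1a2, -3.97 for Col3a1, -1.91 for Col5a1 and -2.21 for Col5a2.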

How the data were processed

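Liver RNA of 3 control and 3 Mttp-IKO pools was analysed, grouped by the genotype labels. For each pool the authors deposited the read count of 41388 genes, the number of unique, unambiguous reads that featureCounts 1.4.6-p5 assigned after STAR 2.5.1a alignment to Ensembl release 76 (GRCm38), from libraries depleted of ribosomal RNA. The deposited CPM (reads relative to all gene reads of the pool) and RPKM (CPM per kilobase of exon length) follow from the counts, so the counts were tested. The table of all pools gave symbols for 40481 genes after 276 repeated lines were dropped. Multimapping reads were not counted, and use of strand is not stated. Nothing says that the mice of different pools were raised apart, so p-values measure the spread between these pools.

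The default of filterByExpr, a count of 10 and a total of 15, kept 17287 genes. With TMM factors of 0.898 to 1.11, genotypes were compared with edgeR 4.0.16 (glmQLFit, glmQLFTest, R 4.3.3), with Benjamini-Hochberg adjustment and a threshold of 0.05. The study names no test for differential expression. SEs are the fold change divided by the square root of F. The test was also run on simulated counts, drawn with the spread of each gene fitted to these pools. No outlying pool was simulated, so that run does not bear on how calls depend on single pools. Ratios were compared by exact permutation (SciPy 1.17.1). Coding sequences were read from GENCODE M21. Alternatives used other scalings, filters, lengths and thresholds, DESeq2 1.42.0, limma-voom (limma 3.58.1), a replicate block, subtraction of a loess fit (span 0.3) on gene length within each pool, and each pool left out. Column names of the table matched the 6 pools, with 0 other columns.

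The rule for the members uses gene names alone, but it and the gene lists were chosen with earlier results of these data known. Named were the members and the called genes of each pathway list, up to 5 by fold change. Beside these stand the 2 uncalled genes per list with the highest mean CPM over all pools. Also named were the most abundant markers of the stellate and Kupffer cell lists, the 10 genes nearest in profile, and Mttp. Of the muscle, myofibroblast and fibroblast lists only some markers were named, and of the other cell types none. Tgfb1, Col24a1, Adamts2, Adamts3, Adamts14, Bmp1, Pcolce, Pcolce2, Tll1, Tll2, Fmod, Bgn, Ddr2, Loxl3, Loxl4, Colec11, Timd4, Vsig4, Dpt, Entpd2 and Clec3b go beyond this rule and were named after their values were seen.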

Additional observations from a re-analysis of the deposited data

How the results depend on the processing

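Under the 12 alternatives that keep all pools, the 5 called members stayed called with the same direction. Col1a1 ranged from -3.92 to -3.59 on the log2 scale, Col1a2 from -3.08 to -2.78, Col3a1 from -4.12 to -3.79, Col5a1 from -2.06 to -1.80, Col5a2 from -2.53 to -2.25, and uncalled Col5a3 from -0.52 to -0.27. Leaving out each pool in turn gave 0 to 5 called members, and log2 fold changes of -4.10 to -3.32 (Col1a1), -3.20 to -2.57 (Col1a2), -4.28 to -3.54 (Col3a1), -2.11 to -1.56 (Col5a1), -2.61 to -1.90 (Col5a2) and -0.60 to -0.01 (Col5a3); these fits have fewer samples. The genes called between genotypes, 694, were 1995 with DESeq2, 428 with limma-voom, 1658 at a threshold of 0.1, and 0 to 892 without 1 pool. Calls without 1 pool were 0 to 1 among the other fibrillar collagens, 0 to 5 in folding and modification, 0 to 9 in fibril assembly, 0 to 7 in receptors and degradation and 0 to 1 in TGF-beta signalling. The folding list had 6 calls with total count scaling, without a filter on low counts or at a threshold of 0.1, and 7 with DESeq2, which called 1 TGF-beta gene; with limma-voom the fibril assembly list had 6 calls and Creb3l1 and Lair1 were not called. The cause was not tested. Total count scaling moved the median log2 fold change of all genes by -0.18, and 89.0% of its 1019 calls were lower against 77.1% of the 694; removal of the length trend moved it by 0.12 (57.5% of 880 calls lower). The replicate numbers share no stated source, and same-numbered pools had correlations of deviations of 0.14, 0.11 and 0.01; with a replicate block, 592 genes, 5 members and 7 genes of fibril assembly were called, the exact test of ratios within pairs could not go under 0.25, and every pool but Mttp-IKO pool 3 correlated best with its own number. Without 1 pool, the log2 differences between genotypes were 0.57 to 0.97 (Col1a2 to Col1a1), -0.30 to -0.14 (Col3a1 to Col1a1), 1.59 to 2.02 (Col5a1 to Col1a1), -0.70 to -0.30 (Col5a2 to Col5a1), 0.97 to 2.09 (Col5a3 to Col5a1) and -2.93 to -2.31 (members to stellate genes). Ratios of levels in control pools moved with the length used, from 0.358 (deposited length) to 0.701 (coding) and 0.733 (transcript) for Col1a2 to Col1a1, from 0.817 to 1.21 and 1.30 for Col3a1 to Col1a1, and from 0.373 to 0.517 and 0.535 for Col5a2 to Col5a1; these lengths were chosen after seeing the data, in place of RefSeq coding lengths, which were not run. Of the 578 values of 34 named genes under an alternative, 473 kept direction and call, 93 lost the call, 4 gained it and 8 turned direction, all 8 uncalled: P4hb (-0.035 with total count scaling; -0.033 to 0.30 without 1 pool), Itgb1 (0.050 without the length trend; -0.13 to 0.055 without 1 pool), and, without 1 pool, Sp1 (-0.071 to 0.42), Col27a1 (-1.03 to 0.039) and Col11a2 (-0.027 to 0.50).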
